A study of Mus musculus with 8 samples.

Results

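TNF superfamily ligands and receptors were followed in Th1 and Th17 cells, which are subsets of mouse CD4 helper T cells, from wild-type and Tet2-deficient animals. The members are 10 genes, 7 ligands (Tnf, Lta, Ltb, Tnfsf11, Tnfsf8, Cd40lg and Cd70) and 3 receptors (Tnfrsf9, Tnfrsf4 and Tnfrsf18), out of 19938 genes in the table. Each was read by the probe set that names it alone, and every member had exactly 1 such probe set. All 10 entered the tests, because no filter on low signal was applied. Cd70 was the only member whose mean signal lay under that of the median gene (6.56 on the log2 scale).

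The study addressed the role of Tet2 in the differentiation of T helper subsets; Tet2 is an enzyme that oxidizes the methyl group of cytosine in DNA. There were 8 arrays in 4 groups of 2, called biological replicates in the titles: Th1 and Th17 cells that came either from Tet2(f/f) animals, called wild-type, or from CD2(Cre)Tet2(f/f) animals, called Tet2-deficient. All groups therefore carried the floxed Tet2 allele, and the groups differed in the Cre transgene, which is named after CD2, a surface protein of lymphocytes. The age of the mice, the culture conditions, the time of harvest and whether animals were pooled are not given in the sources used here. Sex-linked genes, given below, bear on the question of pooling for some Th17 arrays. If the 2 arrays of a group did not come from separate animals, the p-values measure only the spread between preparations.

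Members of the TNF superfamily are membrane-bound or shed trimers that T cells use to signal to other cells and to one another. Their receptors recruit TRAF adaptor proteins and activate NF-kB, and some carry a death domain. In activated CD4 T cells the ligands act on B cells, dendritic cells and stroma, while 4-1BB (Tnfrsf9), OX40 (Tnfrsf4) and GITR (Tnfrsf18) are costimulatory receptors induced by activation.

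The median log2 signal lay between 6.53 and 6.61 on the 8 arrays, and Pearson correlations across genes (no independent replicates) were 0.990 to 0.994 within groups and 0.977 to 0.982 between subsets. Tet2 itself had log2 signals of 8.14 and 8.02 on wild-type Th1 arrays, 8.12 and 7.98 on Tet2-deficient Th1 arrays, 8.51 and 8.49 on wild-type Th17 arrays and 8.34 and 8.39 on Tet2-deficient Th17 arrays. Where its probes lie relative to the floxed exons is not known here, so the signal is no check of the deletion. The subset markers mostly followed the labels. All 4 measured Th17 markers (Il17a, Il17f, Il23r and Ccr6) were called higher, and 3 of 5 Th1 markers (Ifng, Tbx21 and Il12rb2) lower, in Th17 cells of both genotypes. Another Th1 marker, Il18r1, went the other way, at 0.27 in wild-type cells and called higher in Tet2-deficient cells (0.87), and Cxcr3 was not called. Tbx21, which encodes the Th1 factor T-bet, had 10.20 to 10.44 on Th1 and 6.92 to 7.85 on Th17 arrays, and Il17f had 10.60 to 11.04 on Th17 and 6.54 to 6.83 on Th1 arrays. Cd4 lay between 10.18 and 10.42 on all arrays. The Th17 arrays differed in the sex of the RNA. With Xist on Tet2-deficient Th17 replicate 2 set to 100%, the female share was 0.187% and 42.9% in wild-type replicates 1 and 2 and 14.7% in Tet2-deficient replicate 1, against -0.130% to 0.105% on the Th1 arrays. Wild-type Th17 replicate 2 and Tet2-deficient Th17 replicate 1 carried both Xist (10.07 and 8.60) and the Y-linked Eif2s3y (8.46 and 9.36). The RNA on each of these arrays was thus of both sexes, so neither held RNA of a single animal only. For many of the results on Th17 cells, values with the female share as a covariate are given too. Among markers of other cell types, the neutrophil gene Ly6g moved with the groups, at 8.35 to 8.72 on Th1, 9.03 and 9.53 on wild-type Th17 and 10.39 and 10.13 on Tet2-deficient Th17 arrays. Of the 5 neutrophil markers only Ly6g was called between subsets. The summed signal of the list was 9.10 to 9.26, 9.25 to 9.36, 9.58 to 9.90 and 10.39 to 10.61 on the log2 scale in wild-type Th1, Tet2-deficient Th1, wild-type Th17 and Tet2-deficient Th17 cells. Most of that sum was the signal of Ly6g, so it does not show a rise of the list as a whole. The signals have no true zero, so no marker is listed at 0, and S100a8 lay between 4.36 and 4.78 on every array. Of the markers of NK and stromal cells, Eomes was called lower (-1.33 and -1.40 in wild-type and Tet2-deficient cells) and Pecam1 higher (1.32 and 1.11) in Th17 cells. No marker of CD8 T cells, B cells, macrophages, dendritic cells or mast cells was called. The part of these markers in the results was not tested.

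The error given after ± is the standard error of the log2 difference, and every group has n = 2 arrays. The threshold for a call was an adjusted p of 0.05 from limma, with Benjamini-Hochberg adjustment over all 19938 genes.

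**Figure D1:**
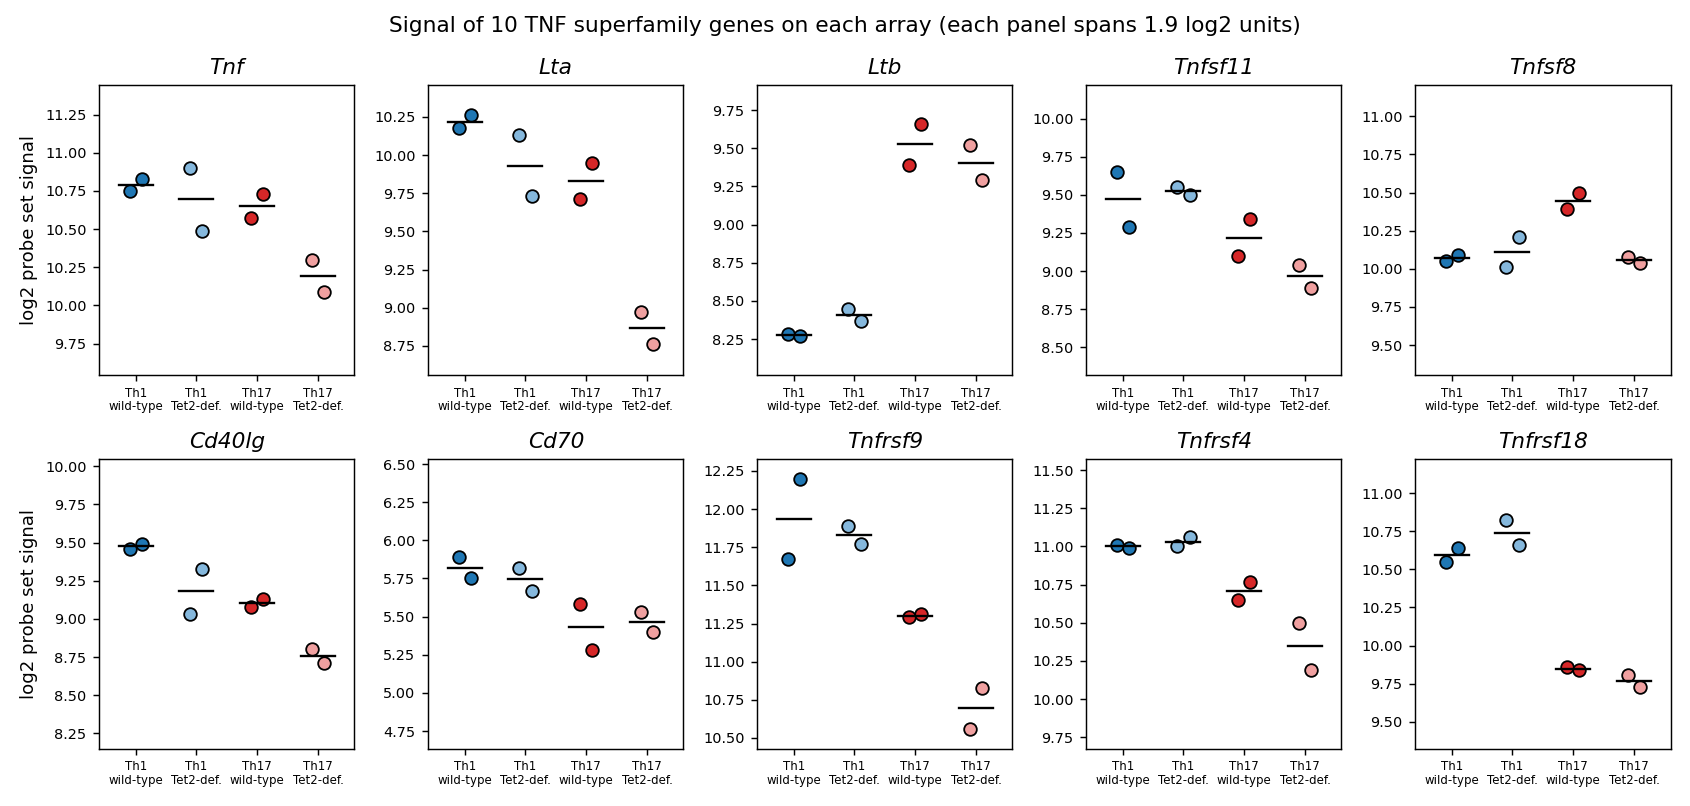
Log2 probe set signal (vertical axis) of the 10 members on each array, by group (horizontal axis); points are arrays, bars are means of n = 2, and all panels have the same height in log2 units. Lta spans 8.76 to 10.26 and is lowest on both Tet2-deficient Th17 arrays, whereas Ltb is high on all 4 Th17 arrays (9.29 to 9.66) and low on all 4 Th1 arrays (8.27 to 8.45).

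Ltb, Tnf and Lta lie next to one another on chromosome 17, within 11072 bases of the GRCm38.p6 assembly: Ltb (gene ID 16994, 35194507 to 35196305), Tnf (gene ID 21926, 35199367 to 35202007) and Lta (gene ID 16992, 35203165 to 35205578). Lta is 1157 bases from Tnf, and Tnf 3061 bases from Ltb. Tnfrsf4 (gene ID 22163, 156013595 to 156016613) and Tnfrsf18 (gene ID 21936, 156026322 to 156028894) are neighbours on chromosome 4, 9708 bases apart, and Tnfrsf9 (gene ID 21942, 150920155 to 150946104) and Tnfsf8 (gene ID 21949, 63831202 to 63861508) are on the same chromosome. Tnfsf11 (gene ID 21943) is on chromosome 14, Cd70 (gene ID 21948) on chromosome 17 and Cd40lg (gene ID 21947) on the X chromosome.

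The promoters shown are those of Ltb, Tnfrsf9 and Tnfrsf18, the members called between wild-type subsets, and of Tnf, which neighbours Ltb and was not called. Each is the 250 bases before the gene's start in RefSeq (GRCm38.p6), read 5′ to 3′ on the gene's strand. Capitals mark CG dinucleotides, the sites at which DNA methylation and its oxidation by Tet enzymes mainly occur. The Ltb stretch is chr17:35194257-35194506 on the plus strand, the Tnf stretch chr17:35202008-35202257 on the minus strand, the Tnfrsf9 stretch chr4:150919905-150920154 and the Tnfrsf18 stretch chr4:156026072-156026321, both on the plus strand.
Ltb: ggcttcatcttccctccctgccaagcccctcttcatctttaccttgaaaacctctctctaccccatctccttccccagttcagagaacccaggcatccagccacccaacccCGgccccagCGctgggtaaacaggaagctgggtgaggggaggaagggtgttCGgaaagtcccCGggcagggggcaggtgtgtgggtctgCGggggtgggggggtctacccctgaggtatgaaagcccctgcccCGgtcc
Tnf: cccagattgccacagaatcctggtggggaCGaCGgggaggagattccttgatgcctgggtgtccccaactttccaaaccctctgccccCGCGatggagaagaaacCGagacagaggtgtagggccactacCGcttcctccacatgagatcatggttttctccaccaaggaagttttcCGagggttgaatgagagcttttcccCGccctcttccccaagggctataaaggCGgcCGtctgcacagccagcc
Tnfrsf9: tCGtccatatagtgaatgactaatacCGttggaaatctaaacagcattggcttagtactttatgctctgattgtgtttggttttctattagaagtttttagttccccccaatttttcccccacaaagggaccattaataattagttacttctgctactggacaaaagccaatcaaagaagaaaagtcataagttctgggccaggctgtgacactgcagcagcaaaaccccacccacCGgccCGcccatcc
Tnfrsf18: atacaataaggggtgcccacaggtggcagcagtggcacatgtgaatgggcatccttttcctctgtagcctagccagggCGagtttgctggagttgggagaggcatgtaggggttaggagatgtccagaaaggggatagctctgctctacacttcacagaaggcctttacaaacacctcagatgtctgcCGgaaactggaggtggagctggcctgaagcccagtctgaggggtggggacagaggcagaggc

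The printed stretches held 6 CG dinucleotides in Ltb, 10 in Tnf, 4 in Tnfrsf9 and 2 in Tnfrsf18. RefSeq windows of 300 bases, from 250 before to 50 after a start, were matched by symbol for 8 of the 10 members, with a second window for Tnfrsf9. Cd40lg and Cd70 were not matched. Over all 32851 windows the median was 7 CG, with quartiles of 3 and 20, and the members' windows ran from 4 in Tnfrsf9 and Tnfrsf18 to 11 in Tnf. Lta, with 10 CG, had more than 56.5% of all windows. A motif of the NF-kB kind, GGGNNNNNCC on either strand, was matched at 4 start positions in the Ltb window. The windows of Tnf, Lta and Tnfsf11 held 2 matches each, and 50.8% of all windows held at least 1. Overlapping matches were counted separately, and most of those in Ltb were shifted readings of the same run, ggggtctacccc. The counts are therefore not numbers of distinct sites. The motif was not found in the windows of Tnfsf8, Tnfrsf4 or Tnfrsf18, or in the first of Tnfrsf9, whose second window held 2 matches. TATAAA on either strand, present in 13.6% of all windows, was in those of Tnf, Lta and Tnfsf11. Such matches are letters in a window, not evidence of binding, and methylation was not measured on these arrays.

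Between wild-type subsets, 3 of the 10 members were called, Ltb higher in Th17 and Tnfrsf9 and Tnfrsf18 lower, where 8.40% of all genes were called. In Tet2-deficient cells 6 were called, Ltb higher and Lta, Tnfsf11, Tnfrsf9, Tnfrsf4 and Tnfrsf18 lower in Th17, where 10.1% of all genes were called. By direction, 3.44% of genes were called lower and 4.97% higher in wild-type Th17 cells, and 3.79% lower and 6.32% higher in Tet2-deficient Th17 cells. The members' median log2 difference was -0.33 among wild-type and -0.53 among Tet2-deficient cells, against -0.03 over all genes in both. In wild-type cells 8 of 10 members had a difference below 0 (55.1% of all genes), and the arrays of both subsets did not overlap for 7 that were lower and 2 that were higher in Th17 cells (28.4% and 23.8% of all genes). In Tet2-deficient cells 9 of 10 were below 0 (55.7% of all genes), and 8 were lower and 1 higher without overlap (31.7% and 25.8% of all genes). Because the members were chosen with earlier results known, these shares describe the set and do not test it. A larger count in Tet2-deficient cells does not show that the subset difference depended on genotype, which is tested further down. In bulk RNA, fewer cells that express a gene and less RNA per cell cannot be told apart.

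**Figure D2:**
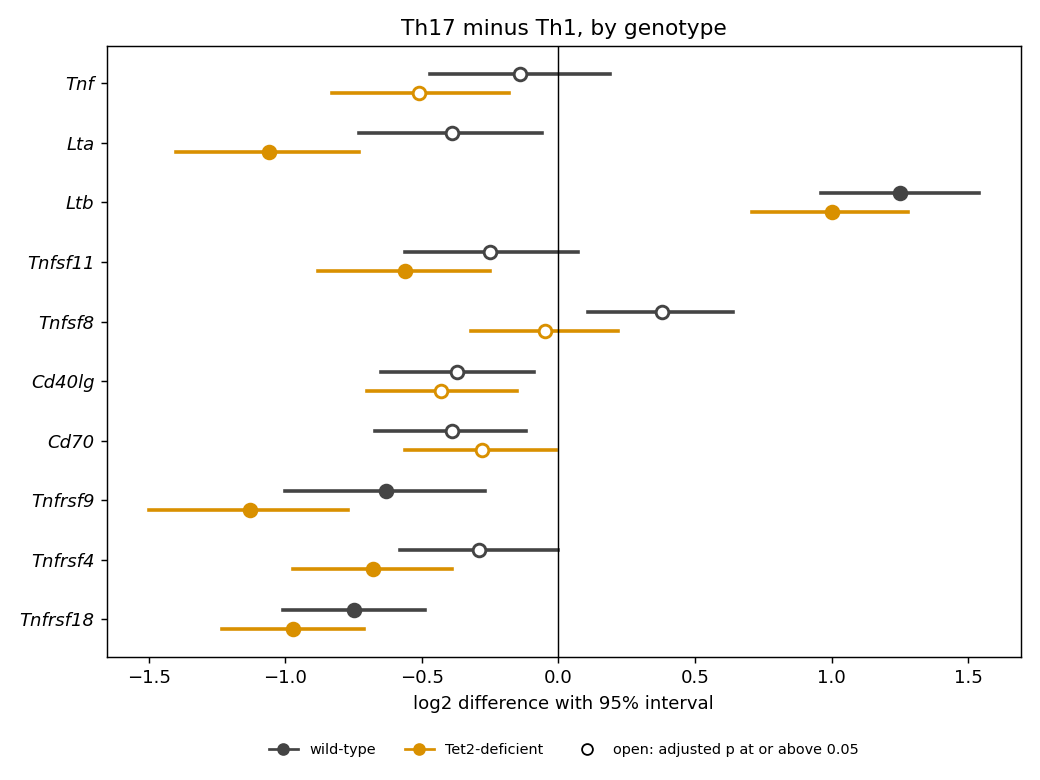
Log2 difference Th17 minus Th1 (horizontal axis) with its 95% interval for each member, in wild-type (grey) and Tet2-deficient cells (orange); filled points were called by limma. Ltb stands to the right, at 1.25 in wild-type cells, and Tnfrsf18 to the left at -0.75 and -0.97.

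Ltb encodes lymphotoxin beta, the membrane anchor of the lymphotoxin heterotrimer that signals through the lymphotoxin beta receptor. Ltb had log2 signals of 8.28 and 8.27 on wild-type Th1 arrays, 8.45 and 8.37 on Tet2-deficient Th1 arrays, 9.39 and 9.66 on wild-type Th17 arrays and 9.52 and 9.29 on Tet2-deficient Th17 arrays. All 4 Th17 arrays lay above all 4 Th1 arrays, while the genotypes overlapped in Th17 cells. Ltb was 2.38-fold higher in wild-type Th17 than Th1 cells (log2 difference 1.25 ± 0.13, adjusted p = 0.000103, limma). In Tet2-deficient cells it was 1.99-fold higher (95% interval of the log2 difference 0.71 to 1.28, adjusted p = 0.000508, limma). Both calls held under all 16 alternatives, with log2 differences of 1.11 to 1.39 and 0.88 to 1.11. Genes with the most similar course over the 8 arrays, by the root mean square difference of gene-centred log2 values, were Stab1, Podnl1 and Tasp1 (0.09, 0.09 and 0.10).

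Lta encodes lymphotoxin alpha, which is secreted as a homotrimer that binds the TNF receptors or is held at the membrane by lymphotoxin beta. Lta had log2 signals of 10.18 and 10.26 on wild-type Th1 arrays, 10.13 and 9.73 on Tet2-deficient Th1 arrays, 9.71 and 9.95 on wild-type Th17 arrays and 8.97 and 8.76 on Tet2-deficient Th17 arrays. Both Tet2-deficient Th17 arrays were the lowest, and the next group, wild-type Th17, overlapped with Tet2-deficient Th1. Against Th1 cells, Lta was 2.09-fold lower in Tet2-deficient Th17 cells (-1.06 ± 0.15, adjusted p = 0.000886, limma), called under all 16 alternatives (-1.26 to -0.86). In wild-type cells the same difference was -0.39 ± 0.15 and was not called (adjusted p = 0.137, limma). Lta and Ltb, whose products form 1 complex, thus differed between subsets in opposite directions in Tet2-deficient cells. The genes closest to Lta in course were Hbegf, Lce3a and Vmn1r86 (0.18, 0.22 and 0.22), and among members Tnfrsf9 (0.25) and Tnf (0.28).

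Tnf encodes the inflammatory cytokine that names the family. Tnf had log2 signals of 10.75 and 10.83 on wild-type Th1 arrays, 10.90 and 10.49 on Tet2-deficient Th1 arrays, 10.57 and 10.73 on wild-type Th17 arrays and 10.30 and 10.09 on Tet2-deficient Th17 arrays. The first 3 of these groups ran from 10.49 to 10.90 with their neighbours in level overlapping (wild-type Th17 with Tet2-deficient Th1, and that with wild-type Th1), and only Tet2-deficient Th17 stood apart. Between subsets, Tnf differed by -0.14 ± 0.15 in wild-type cells (adjusted p = 0.615, limma) and -0.51 ± 0.15 in Tet2-deficient cells (adjusted p = 0.0533, limma), neither called. The latter was called under 4 of 16 alternatives, 1 of them leaving out replicate 2 of the Tet2-deficient Th1 arrays (-0.71, adjusted p = 0.0239). Leaving out other single arrays gave values as small as -0.30.

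Tnfrsf18 encodes GITR. Tnfrsf18 had log2 signals of 10.55 and 10.64 on wild-type Th1 arrays, 10.82 and 10.66 on Tet2-deficient Th1 arrays, 9.86 and 9.84 on wild-type Th17 arrays and 9.81 and 9.73 on Tet2-deficient Th17 arrays. The Th17 arrays lay below the Th1 arrays without overlap in both genotypes. Tnfrsf18 was 1.68-fold lower in wild-type Th17 cells (-0.75 ± 0.12, adjusted p = 0.00225, limma) and 1.95-fold lower in Tet2-deficient Th17 cells (-0.97 ± 0.12, adjusted p = 0.000315, limma), under all 16 alternatives.

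Tnfrsf9 encodes 4-1BB. Tnfrsf9 had log2 signals of 11.67 and 12.20 on wild-type Th1 arrays, 11.89 and 11.77 on Tet2-deficient Th1 arrays, 11.29 and 11.31 on wild-type Th17 arrays and 10.56 and 10.83 on Tet2-deficient Th17 arrays. The Th1 genotypes overlapped, and the 3 levels of Th1, wild-type Th17 and Tet2-deficient Th17 did not. It was 1.55-fold lower in wild-type Th17 than Th1 cells (-0.63 ± 0.17, adjusted p = 0.0370, limma), a call that ended in 6 of 16 alternatives. The difference was -0.37 without wild-type Th1 replicate 2 (adjusted p = 0.164), the array with the highest signal, and was -0.90 without replicate 1. The call also ended without either wild-type Th17 array (adjusted p = 0.126 and 0.159), without either Tet2-deficient Th17 array (0.0543 and 0.0541), and on the 4 compared arrays alone (0.0791). In Tet2-deficient cells it was 2.19-fold lower (-1.13 ± 0.17, adjusted p = 0.00106, limma), under all 16 alternatives. The genes closest in course were Cldnd2, Ajuba and Tmem38b (0.16, 0.20 and 0.20).

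Tnfrsf4 encodes OX40. Tnfrsf4 had log2 signals of 11.01 and 10.99 on wild-type Th1 arrays, 11.00 and 11.06 on Tet2-deficient Th1 arrays, 10.65 and 10.77 on wild-type Th17 arrays and 10.50 and 10.19 on Tet2-deficient Th17 arrays. The 4 Th1 arrays lay close together, from 10.99 to 11.06, and all Th17 arrays lay below them. Tnfrsf4 was 1.61-fold lower in Tet2-deficient Th17 than Th1 cells (-0.68 ± 0.13, adjusted p = 0.00626, limma). That call ended with the female share as a covariate (-0.55, adjusted p = 0.152) and without Tet2-deficient Th17 replicate 2, the array of female RNA (-0.53, adjusted p = 0.0936). In wild-type cells the difference was -0.29 ± 0.13 (adjusted p = 0.198, limma).

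Among the other ligands, Tnfsf11 encodes RANKL, the osteoclast differentiation factor. Tnfsf11 had log2 signals of 9.65 and 9.29 on wild-type Th1 arrays, 9.55 and 9.50 on Tet2-deficient Th1 arrays, 9.10 and 9.34 on wild-type Th17 arrays and 9.04 and 8.89 on Tet2-deficient Th17 arrays. The wild-type subsets overlapped and the Tet2-deficient ones did not. The subset difference was -0.56 ± 0.14 in Tet2-deficient cells (adjusted p = 0.0285, limma) and -0.25 ± 0.14 in wild-type cells (adjusted p = 0.320, limma). The former call ended when any of the 4 Tet2-deficient arrays was left out (adjusted p = 0.0890 and 0.147 without Th1 replicates 2 and 1, 0.0985 and 0.176 without Th17 replicates 1 and 2) and with a covariate for female share (0.201).

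Tnfsf8 encodes the CD30 ligand. Tnfsf8 had log2 signals of 10.05 and 10.09 on wild-type Th1 arrays, 10.01 and 10.21 on Tet2-deficient Th1 arrays, 10.39 and 10.50 on wild-type Th17 arrays and 10.08 and 10.04 on Tet2-deficient Th17 arrays. Wild-type Th17 was the one group above the rest. Th17 minus Th1 gave 0.38 ± 0.12 for wild-type cells (adjusted p = 0.0822, limma) and -0.05 ± 0.12 in Tet2-deficient cells, neither called.

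Cd40lg encodes CD40 ligand, the signal of helper T cells to B cells. Cd40lg had log2 signals of 9.46 and 9.49 on wild-type Th1 arrays, 9.03 and 9.33 on Tet2-deficient Th1 arrays, 9.08 and 9.13 on wild-type Th17 arrays and 8.80 and 8.71 on Tet2-deficient Th17 arrays. The wild-type Th1 arrays were highest and the Tet2-deficient Th17 arrays lowest, with both other groups overlapping between them. The subset differences of -0.37 ± 0.13 and -0.43 ± 0.13 in wild-type and Tet2-deficient cells were not called (adjusted p = 0.0950 and 0.0529, limma). Cd70, the ligand of CD27, lay near the bottom of the scale at 5.28 to 5.89 on all arrays. Its 4 Th1 arrays (5.67 to 5.89) were above its 4 Th17 arrays (5.28 to 5.58), with differences of -0.39 ± 0.13 and -0.28 ± 0.13 that were not called. The latter was -0.13 with the covariate for female share.

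Loss of Tet2 was set against wild-type within each subset. In Th17 cells no member was called (0 of 10, against 0% of all genes), and 9 of 10 had a log2 difference below 0, against 45.6% of all genes. The arrays of both genotypes did not overlap for 8 of the 10 members, all lower in Tet2-deficient cells, against 14.1% of all genes lower without overlap. An unadjusted p under 0.05 was found for 6 of 10 members, against 4.13% of all genes. The members' median log2 difference was -0.36, against 0.01 over all genes. The members were chosen with such values known, so these shares describe the set and do not test it.

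The 2 members with the widest difference in Th17 cells were Lta, with 9.71 and 9.95 against 8.97 and 8.76 (1.95-fold lower, log2 difference -0.96 ± 0.15, 95% interval -1.29 to -0.63, adjusted p = 0.183, limma), and Tnfrsf9, with 11.29 and 11.31 against 10.56 and 10.83 (-0.60 ± 0.17, interval -0.97 to -0.24, adjusted p = 0.779, limma). Lower values that did not pass were also found for Tnf (-0.46 ± 0.15), Tnfsf8 (-0.38 ± 0.12), Tnfrsf4 (-0.37 ± 0.13) and Cd40lg (-0.35 ± 0.13), whose 95% intervals ended at -0.13, -0.12, -0.08 and -0.08, with adjusted p from 0.933 to 0.99996. Tnfsf11 (-0.26 ± 0.14) and Tnfrsf18 (-0.08 ± 0.12) were lower without overlap, with intervals that held 0. Ltb (-0.12 ± 0.13) and Cd70 (0.03 ± 0.13) overlapped between genotypes.

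When female share was added as a covariate, the log2 differences in Th17 cells were -0.93 for Lta, -0.70 for Tnfrsf9, -0.41 for Tnf, -0.39 for Tnfsf8, -0.33 for Cd40lg and -0.28 for Tnfrsf4. The unadjusted p of Cd40lg and Tnfrsf4 then rose above 0.05 (0.0608 and 0.108), and those of Lta, Tnfrsf9, Tnfsf8 and Tnf stayed under it (0.000367, 0.00441, 0.0316 and 0.0482). The adjusted p was 0.691 for Lta and 0.99981 for the other members (limma). Cd70 had 0.13. With any 1 array left out, Lta ranged from -1.08 to -0.84 and Tnfrsf9 from -0.74 to -0.47. Tnfrsf4 moved to -0.21 without Tet2-deficient Th17 replicate 2, the array of female RNA, and to -0.52 without replicate 1. Tnfsf11 moved to -0.14 without wild-type Th17 replicate 2 and to -0.38 without replicate 1, and Tnfrsf18 ranged from -0.11 to -0.04. Lta signals were 9.71 and 9.95 on wild-type Th17 replicates 1 and 2, with female shares of 0.187% and 42.9%. On Tet2-deficient Th17 replicates 1 and 2, with shares of 14.7% and 100%, they were 8.97 and 8.76. The female share varied almost only on the Th17 arrays, and it rose from replicate 1 to replicate 2 in both genotypes. It was also higher in the Tet2-deficient than in the wild-type Th17 replicate of the same number. On these arrays the covariate therefore goes largely with replicate number and partly with genotype, and their parts cannot be cleanly separated. The part of the sex of the RNA in these differences was not tested beyond this covariate.

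**Figure D3:**
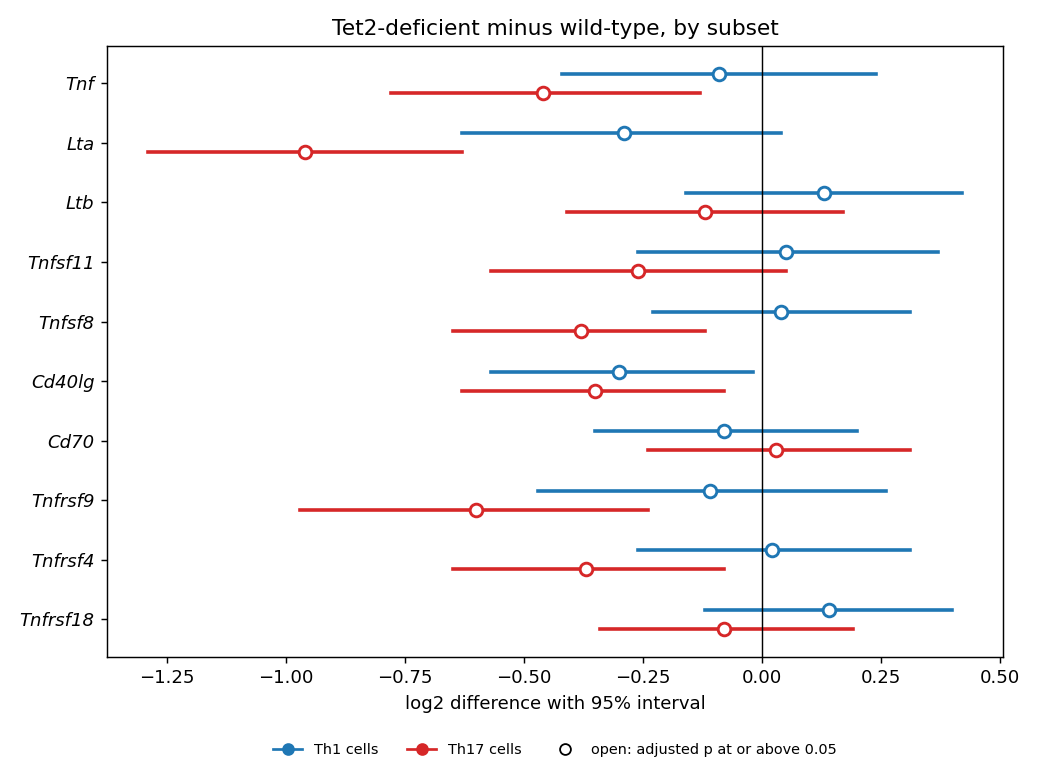
Log2 difference Tet2-deficient minus wild-type (horizontal axis) with its 95% interval for each member, in Th1 (blue) and Th17 cells (red); all points are open because none was called. In Th17 cells Lta lies at -0.96 and Tnfrsf9 at -0.60, and in Th1 cells the members lie between -0.30 and 0.14.

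In Th1 cells the members were split, 5 above and 5 below 0, where 45.9% of all genes were below 0. None was called (0 of 10, against 0.00502% of all genes, which is 1 gene, Ifng, at -1.39 ± 0.14, adjusted p = 0.00438, limma), and 1, Cd40lg, had an unadjusted p under 0.05 (6.05% of all genes). The widest differences were those of Cd40lg (9.46 and 9.49 against 9.03 and 9.33, -0.30 ± 0.13, 95% interval -0.57 to -0.02, adjusted p = 0.821, limma) and Lta (-0.29 ± 0.15, interval -0.63 to 0.04, adjusted p = 0.832, limma). Both were lower without overlap between arrays, against 13.7% of all genes. Cd40lg moved to -0.15 without Tet2-deficient Th1 replicate 1 and to -0.44 without replicate 2, and Lta to -0.49 and -0.09 without the same arrays. Ltb (0.13 ± 0.13) and Tnfrsf18 (0.14 ± 0.12) were higher without overlap, against 19.6% of all genes. Tnf had -0.09 ± 0.15 and Tnfrsf9 -0.11 ± 0.17, with wide intervals of -0.42 to 0.24 and -0.47 to 0.26. Tnfrsf4 (0.02 ± 0.13), Tnfsf11 (0.05 ± 0.14), Tnfsf8 (0.04 ± 0.12) and Cd70 (-0.08 ± 0.13) overlapped between genotypes.

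The genotype difference in Th17 cells minus that in Th1 cells was below 0 for 9 of 10 members, against 50.0% of all genes, and no member was called (0 of 10, against 0% of all genes). The members were chosen with such values known, so this share and those below describe the set and do not test it. It was -0.67 ± 0.22 for Lta (95% interval -1.14 to -0.20, adjusted p = 0.999, limma) and -0.50 ± 0.24 for Tnfrsf9 (interval -1.02 to 0.02). For Tnfsf8 it was -0.42 ± 0.17, for Tnfrsf4 -0.39 ± 0.19 and for Tnf -0.37 ± 0.21. Cd40lg, at -0.06 ± 0.18, had nearly the same genotype difference in both subsets (-0.30 and -0.35), with an interval of -0.45 to 0.33. Only 2 members, Lta and Tnfsf8, had an unadjusted p under 0.05 (0.00944 and 0.0316, against 4.48% of all genes). After the covariate for female share was added, Lta (-0.64) and Tnfrsf9 (-0.60) were under that threshold (0.0270 and 0.0460) and Tnfsf8 (-0.43) was not (0.0683). All 3 then had an adjusted p of 0.99984 (limma), and Cd70 moved from 0.11 to 0.21. Single arrays moved several of these values. Without Tet2-deficient Th1 replicate 1 Tnf was -0.16, and without replicate 2 it was -0.57. Tnfrsf9 was -0.24 without wild-type Th1 replicate 1 and -0.76 without replicate 2. Tnfrsf4 was -0.24 without Tet2-deficient Th17 replicate 2, Tnfsf11 ranged from -0.49 to -0.14, and Lta from -0.87 to -0.47. An unadjusted p under 0.05 was found for 4 members in the mean of both subsets, against 5.48% of all genes, and Tnf (-0.27) passed above it with the covariate (-0.25, unadjusted value 0.0675). Averaged over both subsets, Lta had -0.63 ± 0.11 (adjusted p = 0.209, limma), Tnfrsf9 -0.36 ± 0.12 and Cd40lg -0.33 ± 0.09, with 8 of 10 members below 0 against 44.9% of all genes, and none was called (0 of 10, against 0% of all genes).

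The receptors and ligands that pair with the members were measured in full, 12 of 12. Between genotypes none was called in either subset, and their median log2 difference was 0.13 in Th1 and 0.05 in Th17 cells. Tnfrsf14, which encodes HVEM, a receptor of lymphotoxin alpha and LIGHT, had 8.77 and 9.14 on wild-type against 9.68 and 9.54 on Tet2-deficient Th17 arrays (log2 difference 0.65, adjusted p = 0.621, limma). On Th1 arrays it had 8.71 and 8.48 against 9.01 and 9.11 (0.46, adjusted p = 0.797, limma). Genotypes did not overlap in either subset, and neither difference was called. Tnfrsf8, which encodes CD30, the receptor of the Tnfsf8 product, had genotype differences of -0.42 in Th1 and 0.30 in Th17 cells, neither called.

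Between subsets, Tnfsf4, which encodes the OX40 ligand, was lower in Th17 cells of both genotypes (-0.83 and -0.82, called in both), the direction of its receptor gene Tnfrsf4 in Tet2-deficient cells. The TNF receptor gene Tnfrsf1a (0.48), Tnfrsf14 (0.55) and Tnfrsf8 (0.66) were called higher in Tet2-deficient Th17 cells and not in wild-type cells (0.49, 0.36 and -0.06). Of the 12 partners, 0 were called higher and 1 lower in wild-type Th17 cells, and 3 higher and 1 lower in Tet2-deficient Th17 cells. Over all genes the shares were 4.97% higher and 3.44% lower in wild-type, and 6.32% higher and 3.79% lower in Tet2-deficient Th17 cells.

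Of 6 measured ligands among 8 others listed, 3 were called lower in Th17 cells of both genotypes and none higher. These were Fasl, the death ligand (-1.73 and -1.68 in wild-type and Tet2-deficient cells), Tnfsf10, which encodes TRAIL (-0.87 and -1.12), and Tnfsf14, which encodes LIGHT (-0.48 and -0.57). Of 16 other receptors, 2 were called, both higher in Th17 cells of both genotypes: Tnfrsf25, which encodes the death receptor DR3 (1.05 and 1.13), and Tnfrsf26 (1.14 and 1.26). Among all genes, 3.44% were called lower and 4.97% higher in wild-type Th17 cells, and 3.79% lower and 6.32% higher in Tet2-deficient Th17 cells. No other ligand or receptor was called between genotypes, with list medians of 0.03 and 0.03 in Th1 cells and -0.10 and 0.02 in Th17 cells.

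Downstream of the receptors, 16 of 19 listed adaptors and kinases were measured. The adaptor gene Traf1 was called lower in Th17 cells of both genotypes (-0.91 and -0.67), and Traf4 (-0.56) in Tet2-deficient cells. In wild-type Th17 cells Map3k14, which encodes the kinase NIK (0.42), and Casp8 (0.55) were called higher. Of 15 measured NF-kB factors and targets, Nfkb2 (-0.76 and -0.96), the inhibitor gene Nfkbie (-0.54 and -0.62) and the adhesion gene Icam1 (-0.77 and -0.95) were called lower in Th17 cells of both genotypes. In Tet2-deficient Th17 cells Nfkbib (-0.55) was also called lower, and Cyld (0.69), a deubiquitinase that limits NF-kB signalling, higher. The shares over all genes were 3.44% lower and 4.97% higher in wild-type, and 3.79% lower and 6.32% higher in Tet2-deficient Th17 cells. Between genotypes 0 of 16 and 0 of 15 were called in either subset, and the NF-kB median was 0.14 in Th1 and -0.03 in Th17 cells, where the members' median was -0.36. Members and lists were chosen with earlier results of these data known, so their medians describe them and do not test a contrast between them.

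**Figure D4:**
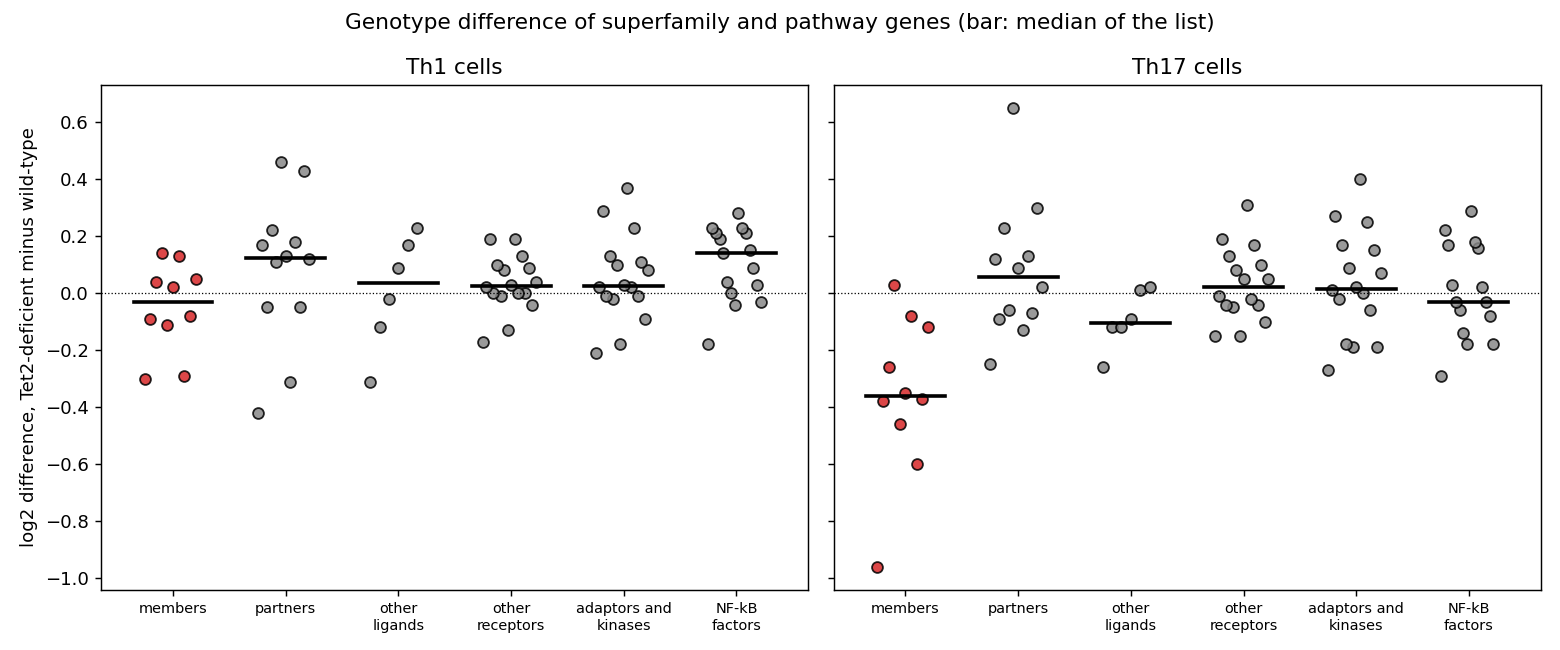
Log2 difference Tet2-deficient minus wild-type (vertical axis) in Th1 (left) and Th17 cells (right) for the 10 members (red) and 5 lists of related genes (grey); points are genes, spread sideways for legibility, and bars are list medians. In Th17 cells the members' median is -0.36 and the medians of the other lists lie between -0.10 and 0.05. Members and lists were chosen with earlier results known, so the medians are descriptive. None of the genes plotted was called.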

How the data were processed

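Total RNA from T helper cells was hybridised to Affymetrix whole-transcript arrays. The values deposited by the authors are log2 probe set signals. Per the submitters' processing notes, GCOS, RMA and Affymetrix Expression Console were used, with no version, order or option given. Since RMA already scales arrays together, no further scaling was applied. Array signals have no read depth; precision is limited by the number of arrays.

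The table held 35556 probe sets on each array. The platform annotation named 1 gene for 21789 of them, several for 1621 and none for 12146. The last 2 kinds were left out. Gene IDs of 21698 matched RefSeq genes of assembly GRCm38.p6. The probe set with the highest mean was kept for the 999 genes with several, which left 19938 genes.

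The test was that of limma 3.58.1, run in R 4.3.3 (lmFit on 4 group means over all 8 arrays, eBayes with an intensity trend, 4 residual degrees of freedom), two-sided, in 6 contrasts, with adjusted p under 0.05 as a call. Intervals cover 95%. The method was tested on simulated data, reported for the genotype contrast in Th1 cells only. There 75.7% of 1.5-fold and 99.8% of 2-fold changes were recovered, with a false share of 6.65%. The simulation had 200 changed genes among 19938, over 10 runs. Benjamini-Hochberg adjustment is stricter where fewer genes change, and in the data this contrast had 1 called gene. The shares recovered therefore do not carry over to the genotype contrasts of these data, where a change of 2-fold could be missed. The female share of RNA was taken from the linear Xist signal, less its mean on Th1 arrays, relative to Tet2-deficient Th17 replicate 2. The numbers in the titles did not pair arrays across groups (correlations of replicate differences of -0.19 to 0.06), so no block was used. The alternatives were a replicate block, a fit on the compared arrays only, a filter at the median level, quantile normalization, probe sets averaged per gene, centring, no trend, the female share and leaving out each array.

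The members, lists and tests were chosen with earlier results of these data known. All members are named. Genes of other lists could be named if called, if among the 3 widest of a contrast or if partners of members, but some such genes were left unnamed. For members whose group means spanned at least 1 log2 unit, the 3 genes nearest in course are named. Of 155 listed genes, 144 were measured, and the others were not analysed here.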

Additional observations from a re-analysis of the deposited data

Results flagged for a closer look

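Tnfrsf18, which encodes GITR, lay higher on both Tet2-deficient than on both wild-type Th1 arrays (10.82 and 10.66 against 10.55 and 10.64) and lower on both Tet2-deficient than on both wild-type Th17 arrays (9.81 and 9.73 against 9.86 and 9.84). Every array thus differed one way in Th1 cells and the other way in Th17 cells. The differences were small, at 0.14 ± 0.12 in Th1 and -0.08 ± 0.12 in Th17 cells, and neither was called. Of all genes, 19.6% were higher without overlap in Th1 cells and 14.1% lower without overlap in Th17 cells. The test of the difference gave a Th17 minus Th1 genotype difference of -0.22 ± 0.17 (95% interval -0.59 to 0.15, adjusted p = 0.999, limma), so the opposite directions did not pass.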

How the results depend on the processing

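Between genotypes, and for the difference of genotype differences, 0 members were called under any alternative run. Between subsets, 2 to 4 members were called in wild-type cells and 4 to 8 in Tet2-deficient cells, while 663 to 1798 and 726 to 2346 genes were called. These counts are out of all members and 19938 genes, except under the filter on low signal. That filter left out genes under the median level, Cd70 among them. Directions were kept for every called member. Tnf and Cd40lg were gained in Tet2-deficient cells by the filter on low signal, by quantile normalization and by leaving out the trend. In wild-type cells Cd40lg was gained by quantile normalization (adjusted p = 0.0414) and Cd70 without Th17 replicate 1 (0.0475). The replicate block gained Cd70 in wild-type cells (-0.39, adjusted p = 0.0485), giving 4 members against 3, and changed no other call. Signs of uncalled values near 0 turned in 23 cases. With quantile normalization Tnfrsf4 in Th1 cells was -0.03 and Ltb averaged over subsets -0.01, also -0.01 with centring, and with the female share Cd70 averaged over subsets was 0.03; the cause was not tested. With an array left out, the genotype difference in Th1 cells ranged from -0.30 to 0.11 for Tnf, -0.12 to 0.23 for Tnfsf11, -0.06 to 0.14 for Tnfsf8, -0.37 to 0.16 for Tnfrsf9 and -0.00 to 0.05 for Tnfrsf4. In Th17 cells it ranged from -0.26 to 0.02 for Ltb and -0.11 to 0.18 for Cd70. Averaged over subsets it ranged from -0.06 to 0.07 for Ltb, -0.10 to 0.05 for Cd70 and -0.01 to 0.07 for Tnfrsf18. The Th17 minus Th1 genotype difference ranged from -0.20 to 0.09 for Cd40lg and -0.04 to 0.26 for Cd70, and the subset difference of Tnfsf8 in Tet2-deficient cells from -0.15 to 0.05.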

Other observations

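Genes of T cell activation, most of them transcription factors, were measured for 15 of 15 listed. None was called between genotypes. Their median log2 difference was 0.10 in Th1 cells, with 13 of 15 above 0, and -0.08 in Th17 cells, with 12 of 15 below 0, against a median of 0.01 over all genes in both. Of all genes, 45.9% were below 0 in Th1 and 45.6% in Th17 cells. The list was chosen with earlier results known, so these counts describe it and do not test it. The orphan receptor gene Nr4a3 had 9.19 and 9.22 on wild-type against 9.01 and 8.69 on Tet2-deficient Th17 arrays (-0.35). The widest difference of the list in Th17 cells ran the other way, for Nfatc3, with 9.77 and 9.79 against 10.28 and 10.06 (0.39). Fosl1, an AP-1 factor gene, had 0.39 in Th1 and -0.09 in Th17 cells. None of these was called. Between subsets Nr4a3 (-0.84 and -1.34) and Nr4a2 (-0.79 and -0.95) were called lower in Th17 cells of both genotypes, as Tnfrsf9 was, while Nfatc3 was called higher (0.49 and 0.87). Egr1 (0.74) and Nr4a1 (0.69) were called higher in wild-type Th17 cells, and Egr2 (-0.61) lower in Tet2-deficient Th17 cells.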
